A study of Mus musculus with 12 samples.

Results

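This account covers the genes of the array that carry an orphan receptor name (Gpr followed by a number) or a purinergic receptor name (P2ry followed by a number). All probes other than controls whose gene name in the array files has that form were taken, whatever their signal. They numbered 140 probes for 103 genes, 94 named Gpr and 9 named P2ry. Of these, 76 probes passed the filter on dim signals and 65 genes were tested, 57 Gpr and 8 P2ry, among 18277 genes tested on the whole array. RNA came from peritoneal exudate cells, the mixed cells washed out of the abdominal cavity, of female mice aged 8 weeks on a 129S2/SvPas*BALB/c background. Wild-type mice and Ifnar2-/- mice, which lack a chain of the receptor for type I interferons, received either interferon beta (IFN-β) or phosphate-buffered saline (PBS) in the peritoneal cavity, and cells were collected 3 hours later. IFN-β was given at 10000 IU/ml, with no volume stated, and no group received the preparation without active IFN-β. Each of the 4 groups held 3 arrays from different mice, and the design text states independent experiments. The making of the Ifnar2 allele is not stated in the labels.

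G protein-coupled receptors cross the membrane in a bundle of helices and pass the binding of a small molecule, lipid or peptide on to G proteins inside the cell. P2Y receptors bind nucleotides that cells release when they are stimulated, stressed or damaged, and on myeloid cells they steer migration and cytokine release. Gpr names were given to receptors found by sequence before a ligand was known, so the set also holds receptors now paired with fatty acids, lysolipids, prostaglandins or protons, the adhesion receptors, and a few membrane proteins of other kinds. In the current nomenclature 30 of the 103 genes have another symbol, and those are given below in parentheses.

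Values are the log2 of Agilent's processed signal after subtraction of that array's 75th percentile, called log2 units, so a level of 0 is that percentile and a difference of 1 is a doubling. A gene was called changed when limma's moderated test over all 18277 genes gave an adjusted p (Benjamini-Hochberg, two-sided) under 0.05. Levels of different genes are not compared, since each comes from its own probe. The arrays lay on 3 slides: slide 1 held the wild-type PBS arrays and 1 wild-type IFN-β array, slide 2 held the other wild-type IFN-β arrays and 1 array of each Ifnar2-/- group, and slide 3 held 2 arrays of each Ifnar2-/- group. On slide 3, 59.4% to 62.5% of spots were well above background, against 65.2% to 71.6% elsewhere, and the lowest signal well above background lay at -5.46 to -5.02 log2 units there against -6.67 to -6.07. The targeted gene gave opposite answers on its probes: one Ifnar2 probe read 4.64 ± 0.23 log2 units (SD, n = 3) in wild type and 2.79 ± 0.14 in Ifnar2-/- after PBS, and the other read 1.64 ± 0.07 and 2.59 ± 0.10. Where these probes lie relative to the deleted part is not stated in the labels. Large peritoneal macrophage markers were high in every group, with means over 11 tested markers of 4.39 to 5.12 log2 units over the 12 arrays, and 10 of 10 B cell markers were tested, with array means of 1.91 to 3.22. In RNA from mixed cells, fewer cells of a type and less RNA per cell cannot be told apart.

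The probes below are the 60-base array sequences, 5′ to 3′, of the receptors that the results turn on. A trio of P2Y receptors rose in wild type and lie near each other on chromosome 3, with other genes between P2ry14 and P2ry13. A pair of P2Y receptors are neighbours on chromosome 7 and behaved differently, and Gpr84 is the last. The sequences are shown because each measured level rests on that single stretch of transcript. Positions in the array files, whose build field is mm7, are on the minus strand at chromosome 3, 59336236 to 59336295 (P2ry13), 59243195 to 59243254 (P2ry14) and 59344780 to 59344839 (P2ry12), at chromosome 7, 97043285 to 97043344 (P2ry2) and 96983881 to 96983940 (P2ry6), and at chromosome 15, 103297103 to 103297162 (Gpr84).
P2ry13: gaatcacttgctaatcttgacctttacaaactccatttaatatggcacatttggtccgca
P2ry14: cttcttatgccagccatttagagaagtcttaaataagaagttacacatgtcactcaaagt
P2ry12: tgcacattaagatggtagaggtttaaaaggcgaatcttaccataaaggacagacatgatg
P2ry2: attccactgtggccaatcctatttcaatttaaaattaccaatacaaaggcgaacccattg
P2ry6: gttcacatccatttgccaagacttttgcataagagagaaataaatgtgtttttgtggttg
Gpr84: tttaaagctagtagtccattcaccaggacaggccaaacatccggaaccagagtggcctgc

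In wild-type cells IFN-β changed 30 of the 65 tested receptor genes, 17 higher and 13 lower, where 39.4% of all tested genes were called (17.6% higher and 21.8% lower). P2ry13, Gpr15, Gpr33, Gpr128, Gpr141, P2ry14 and Gpr109a had the largest fitted rises, and Gpr83 and P2ry2 the largest falls. Of these, Gpr15, Gpr33 and Gpr128 passed the filter on dim signals only through the wild-type IFN-β arrays. The filter thus favoured a rise in wild type for them, and their place in this ranking and their calls are not read as support. Gpr158, with a smaller rise, passed the filter in the same way. The median log2 fold change was -0.07 over the tested receptor genes and -0.04 over all genes. Among the 46 receptor genes whose probe was well above background on all 12 arrays, 23 were called, 10 higher and 13 lower, beside 43.3% of all genes filtered that way (18.9% higher and 24.4% lower). The split depended on scaling: without scaling between arrays, 12 were higher and 16 lower among 28 called, and the median over all genes moved to -0.21. In Ifnar2-/- cells 2 of the 65 genes were called, Gpr84 and Gpr109a, both higher, against 1.13% of all genes. At an unadjusted p under 0.05, 7 were higher and 6 lower. Among the 46 genes well above background on all arrays 3 were called, 2 higher and 1 lower, beside 1.87% of all genes. The difference between the responses, tested itself, was called for 17 receptor genes, 7 of them with a higher and 10 with a lower response in Ifnar2-/-, against 17.8% of all genes (8.68% higher and 9.09% lower), and 16 of these were also called in wild type. Among the 46 genes well above background on all arrays 12 were called, 5 higher and 7 lower, beside 20.2% of all genes (10.4% and 9.74%). For the other 14 genes called in wild type the difference between genotypes was not called, which does not show that the genotypes responded alike.

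**Figure D1:**
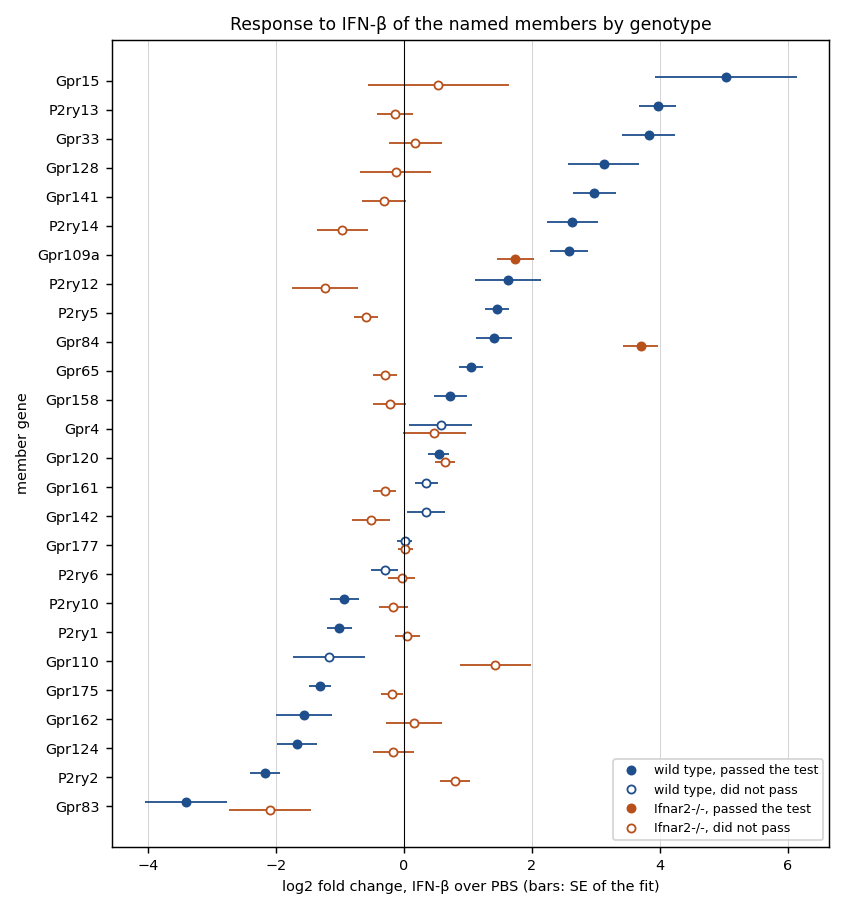
Log2 fold change (IFN-β over PBS, x axis) of the 26 receptor genes given with full values, in wild type (blue) and Ifnar2-/- (orange), with the standard error of the fit as bars and filled points for an adjusted p under 0.05. In Ifnar2-/- only Gpr84 (3.70) and Gpr109a (1.74) have filled points; the wild-type values of Gpr15, Gpr33 and Gpr128 come from probes not above background after PBS.

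Among the P2Y nucleotide receptors, 6 of 7 were tested, and in wild type 3 rose, 2 fell and P2ry6 was not called, beside 17.6% and 21.8% of all genes. P2ry13, a receptor for ADP, had the lowest adjusted p of the tested receptor genes. Its wild-type PBS arrays read -4.01, -4.89 and -4.12 log2 units and its IFN-β arrays -0.16, -0.73 and -0.24. The groups lay far apart, and IFN-β raised P2ry13 by 3.97 log2 units, 15.6-fold (SE 0.29, adjusted p = 2.67e-06). In Ifnar2-/- the PBS arrays read -2.69, -3.10 and -3.22 and the IFN-β arrays -3.12, -2.74 and -3.58. These overlapped, with a log2 fold change of -0.14 (adjusted p = 0.828), and the difference between the responses was -4.11 (SE 0.40, adjusted p = 6.85e-05). Within slide 1, which held 1 wild-type IFN-β and the 3 PBS arrays, the difference was 4.18, and within slides 2 and 3 the Ifnar2-/- differences were -0.43 and -0.0020.

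P2ry14, a receptor for UDP-glucose and other UDP-sugars, read 0.15, 0.41 and -0.16 in wild type after PBS and 2.72, 2.32 and 3.25 after IFN-β. It rose by 2.63 log2 units (SE 0.40, adjusted p = 0.000474), with no overlap between the groups. Ifnar2-/- arrays went the other way, from -0.41, -0.22 and -0.06 after PBS to -0.77, -0.55 and -2.27 after IFN-β. That change of -0.97 was not called (adjusted p = 0.24), and the IFN-β array of replicate 3 was the lowest of all. The responses differed by -3.60 (SE 0.57, adjusted p = 0.00155).

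P2ry12, an ADP receptor best known from platelets and microglia, read -2.40, -2.17 and -2.60 after PBS in wild type and -0.97, -0.94 and -0.36 after IFN-β. The groups did not overlap, and the rise of 1.63 log2 units (SE 0.52) was called with an adjusted p of 0.0283. The Ifnar2-/- IFN-β arrays, which enter the same fit, read -1.57, -1.31 and -3.77, with replicate 3 far below the others. After PBS the Ifnar2-/- arrays read -0.95, -1.14 and -0.84, and the genotype difference of 1.41 after PBS was not called (adjusted p = 0.164). The same 1.41 was called with only the compared groups fitted (adjusted p = 0.00615) and without Ifnar2-/- IFN-β replicate 3 (adjusted p = 0.00203). The responses differed by -2.87 (SE 0.73, adjusted p = 0.0207). Leaving out any of the 6 wild-type arrays ended the wild-type call (1.43 to 1.74 log2 units, adjusted p from 0.0508 to 0.0908), as did slide as a fixed block (1.41, adjusted p = 0.221) and testing all probes (adjusted p = 0.0534). The block also ended the call for the difference between responses (-2.66, adjusted p = 0.118).

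In RefSeq's gene order (GRCm38.p6) these 3 receptors, together with Gpr171, lie within the span of Med12l, a gene for a subunit of the Mediator complex. The genes overlapping that span were examined because of this order, after the values of the receptors were known. Of 9 genes there, 7 were tested. Med12l, F630111L10Rik and Igsf10 passed the filter on dim signals only through the wild-type IFN-β arrays, so no count over the genes at this place is read. Med12l was not well above background on any wild-type PBS array and was at least 5.15-fold higher after IFN-β in wild type (adjusted p = 0.000498). The long noncoding RNA F630111L10Rik, which overlaps P2ry14, rose by 2.22 log2 units (SE 0.50, adjusted p = 0.00494), and Igsf10, an immunoglobulin superfamily gene overlapping the end of Med12l, was at least 2.91-fold higher (adjusted p = 0.00311). Gpr171, an orphan of lymphocytes, was not called, and its arrays read 0.02, -0.22 and 0.55 after PBS and 0.19, 0.55 and 0.16 after IFN-β. These overlapped and differed by 0.19 (SE 0.24, adjusted p = 0.598). None of the 7 genes was called in Ifnar2-/- by limma. The difference between responses was called for the 3 receptors. For Med12l (adjusted p = 0.0121) and F630111L10Rik (0.0158) it was called as well, and for Igsf10 (0.0804) it was not. The filter favoured a wild-type rise and a lower Ifnar2-/- response in Med12l, F630111L10Rik and Igsf10, so their calls are not read as support for a shared response. Without slide 3 the Med12l difference was -2.42 (adjusted p = 0.0619). Slide as a fixed block ended both F630111L10Rik calls (1.73, adjusted p = 0.0984, in wild type and -2.44, adjusted p = 0.104, for the difference). Normexp gave differences of -0.57 for Med12l and -1.05 for F630111L10Rik, both called.

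**Figure D2:**
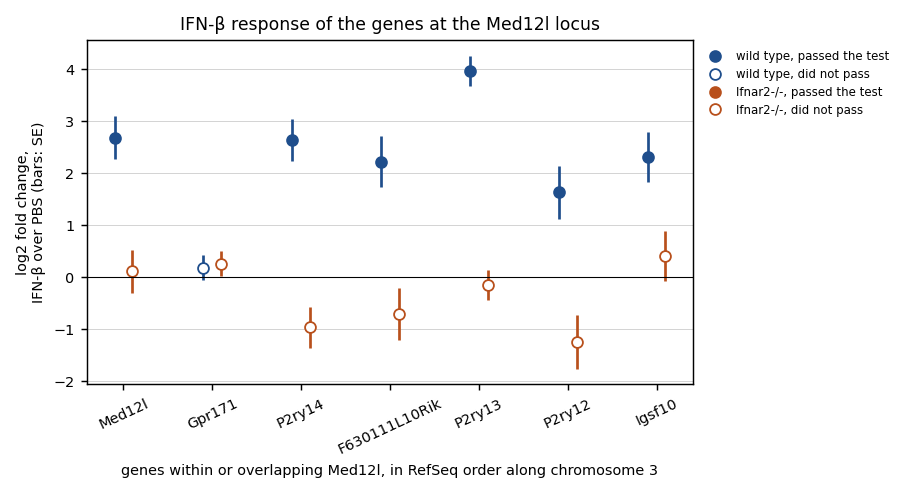
Log2 fold change (IFN-β over PBS, y axis, with standard errors) of the 7 tested genes within or overlapping Med12l, in RefSeq order along chromosome 3, in wild type (blue) and Ifnar2-/- (orange), with filled points for an adjusted p under 0.05. In wild type P2ry12, P2ry13 and P2ry14 lie at 1.63 to 3.97 and Gpr171 at 0.19. Med12l, F630111L10Rik and Igsf10 were tested only because they were bright after IFN-β in wild type. The fitted wild-type points of Med12l and Igsf10 rest on PBS signals not above background.

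P2ry2, a receptor for ATP and UTP, moved the opposite way. Its wild-type arrays read 1.96, 2.50 and 2.14 after PBS and -0.04, 0.16 and -0.04 after IFN-β. All IFN-β arrays lay below all PBS arrays, and P2ry2 fell by 2.18 log2 units (SE 0.24, adjusted p = 5.36e-05). The Ifnar2-/- arrays read 1.77, 2.09 and 2.80 after PBS and 2.88, 2.98 and 3.19 after IFN-β. Here all IFN-β arrays lay above all PBS arrays, but the difference of 0.80 (SE 0.24) was not called (adjusted p = 0.132), though it was without Ifnar2-/- PBS replicate 3 (1.09, adjusted p = 0.0496). The difference between the responses was 2.98 (SE 0.34, adjusted p = 0.000183).

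P2ry1, another ADP receptor, read -1.36, -0.99 and -0.89 after PBS and -1.93, -2.03 and -2.31 after IFN-β in wild type. It fell by 1.01 log2 units (SE 0.19, adjusted p = 0.00179), with no overlap. In Ifnar2-/- the arrays read -0.69, -0.40 and -0.73 after PBS and -0.31, -0.45 and -0.90 after IFN-β, and overlapped. The responses differed by 1.06 (SE 0.27, adjusted p = 0.0204). The gene's other kept probe gave -0.44 (SE 0.25) in wild type, which was not called among all probes (adjusted p = 0.194). With the mean of both probes the difference between responses was 0.72 (adjusted p = 0.0876). That difference was also lost without replicate 3 of either PBS group (0.97, adjusted p = 0.0521, for wild type and 1.00, adjusted p = 0.0512, for Ifnar2-/-) and without slide 3 (1.39, adjusted p = 0.0618). Slide as a fixed block ended both calls (-0.85, adjusted p = 0.0591, in wild type and 0.90, adjusted p = 0.146, for the difference).

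P2ry6, a receptor for UDP, did not pass the test for IFN-β in either genotype but differed between genotypes. Wild-type arrays read 0.49, -0.01 and -0.20 after PBS and -0.23, -0.35 and -0.06 after IFN-β. Ifnar2-/- arrays read 2.48, 2.23 and 2.78 after PBS and 2.76, 2.29 and 2.34 after IFN-β. Every Ifnar2-/- array lay above every wild-type array, and after PBS the difference was 2.40 log2 units, 5.29-fold (SE 0.21, adjusted p = 0.000127). The responses to IFN-β were -0.31 (adjusted p = 0.288) in wild type and -0.04 (adjusted p = 0.949) in Ifnar2-/-. P2ry6 and P2ry2 are neighbours on chromosome 7 in RefSeq's order, and the genotype difference of P2ry2 after PBS was 0.02 (SE 0.24, adjusted p = 0.977). P2ry4, a UTP receptor, was well above background on 1 array and was not tested.

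A pair of genes with P2ry names encode lysolipid receptors. P2ry5 (Lpar6), a receptor for lysophosphatidic acid, read 2.87, 2.65 and 2.45 after PBS and 4.17, 3.95 and 4.23 after IFN-β in wild type. It rose by 1.46 log2 units (SE 0.19, adjusted p = 0.000167), with no overlap. Ifnar2-/- arrays read 3.58, 3.29 and 3.04 after PBS and 3.04, 2.58 and 2.49 after IFN-β, a change of -0.60 that was not called (adjusted p = 0.148). The responses differed by -2.06 (SE 0.27, adjusted p = 0.000465). P2ry10, a receptor for lysophosphatidylserine found on lymphocytes, read 1.42, 0.89 and 1.61 after PBS and 0.15, 0.68 and 0.30 after IFN-β in wild type. It fell by 0.93 log2 units (SE 0.22, adjusted p = 0.00746), and the groups did not overlap. Its Ifnar2-/- arrays read 1.47, 1.64 and 0.98 after PBS and 1.08, 1.26 and 1.24 after IFN-β, which overlapped, and the responses did not differ by the test (0.77, adjusted p = 0.134). B cell markers moved with P2ry10 in wild type. Their mean over 10 markers ranged from 2.61 to 3.22 with PBS and from 1.91 to 2.35 with IFN-β. Of the 10, 3 were called lower, beside 21.8% of all genes, and their part in the result was not tested.

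**Figure D3:**
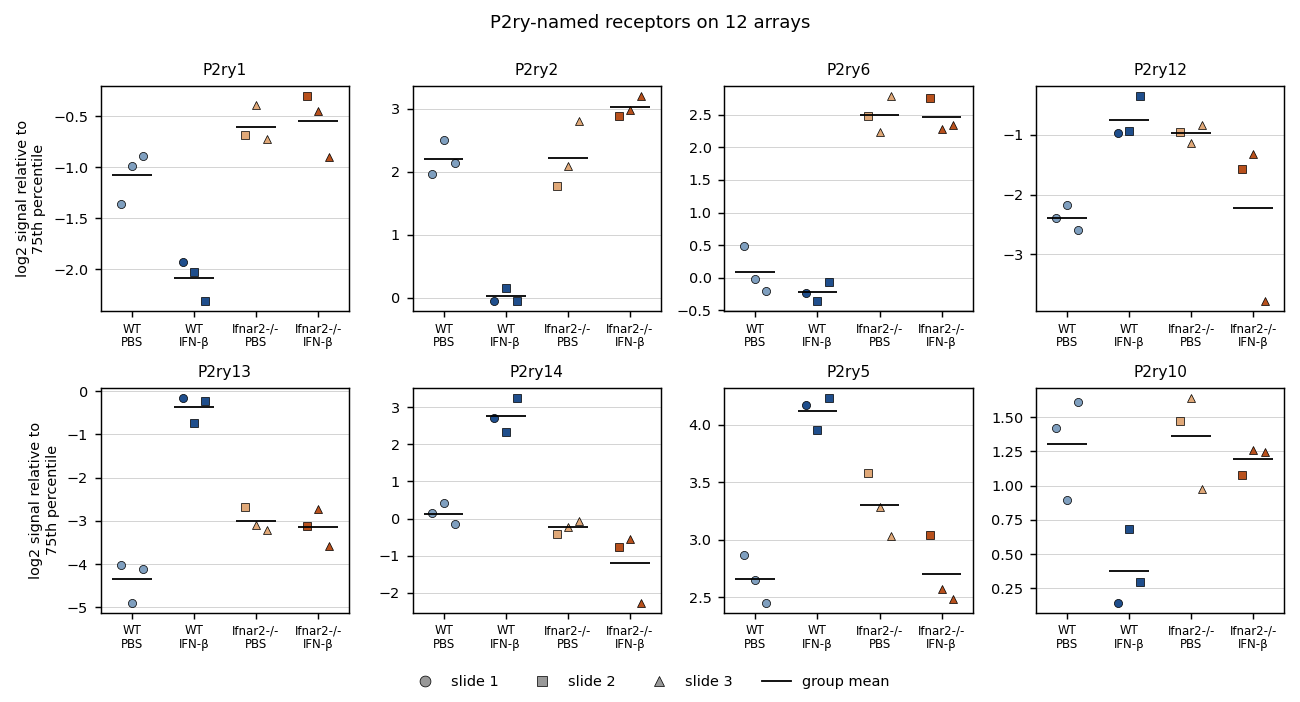
Level of the 8 tested P2ry-named genes on each of the 12 arrays (y axis, log2 signal relative to the array's 75th percentile) by group, with the slide as the symbol and the group mean as a line. P2ry12, P2ry13, P2ry14 and P2ry5 are higher after IFN-β in wild type, P2ry1, P2ry2 and P2ry10 are lower, and P2ry6 separates the genotypes, with wild type at -0.35 to 0.49 and Ifnar2-/- at 2.23 to 2.78.

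Of the 8 tested lysolipid, oxysterol and prostaglandin receptors, P2ry10 and P2ry5 included, 2 rose and 1 fell in wild type, beside 17.6% and 21.8% of all genes, and none was called in Ifnar2-/- by limma. Gpr44 (Ptgdr2), the prostaglandin D2 receptor of eosinophils and type 2 helper T cells, was the other gene that rose, by 0.81 log2 units (SE 0.21, adjusted p = 0.0102). Gpr34, Gpr174, Gpr18, Gpr55 and Gpr23 (Lpar4) had values between -1.04 and -0.24 and were not called. The other kept probe of Gpr174 fell by 1.10 (adjusted p = 0.0379 among all probes).

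Gpr84, a receptor for medium-chain fatty acids on myeloid cells, was called in all 4 comparisons. Its wild-type arrays read -3.90, -3.70 and -3.79 after PBS and -1.83, -2.50 and -2.83 after IFN-β. The Ifnar2-/- arrays read -2.60, -2.34 and -2.34 after PBS and 1.43, 0.72 and 1.69 after IFN-β. Within each genotype the groups did not overlap, and the Ifnar2-/- IFN-β arrays stood above all others. The rise was 1.41 log2 units (SE 0.28, adjusted p = 0.00231) in wild type, or 0.86 with normexp, and 3.70 (SE 0.28, adjusted p = 0.000468) in Ifnar2-/-. The response without Ifnar2 was larger by 2.29 (SE 0.39, adjusted p = 0.00246). Within slides 2 and 3 the Ifnar2-/- differences were 4.02 and 3.54. In the Ifnar2-/- comparison arrays of the same replicate number, which also shared a slide, deviated together, and a fit of those 6 arrays with the replicate number as a block gave the same 3.70 with an adjusted p of 0.126. That fit called none of the 65 receptor genes by limma, with 17 at an unadjusted p under 0.05. Without the 4 arrays of slide 3 the difference was 4.02 (adjusted p = 0.0605).

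Gpr109a (Hcar2), the receptor for niacin and the ketone body β-hydroxybutyrate, read 1.00, 1.30 and 1.62 after PBS and 3.89, 3.92 and 3.85 after IFN-β in wild type. It rose by 2.58 log2 units (SE 0.29, adjusted p = 6.27e-05). In Ifnar2-/- it read -0.43, -0.11 and -0.52 after PBS and 1.53, 1.98 and 0.64 after IFN-β, and rose by 1.74 (SE 0.29, adjusted p = 0.0223). No groups within a genotype overlapped, and the responses did not differ by the test (-0.84, SE 0.41, adjusted p = 0.203). The call in Ifnar2-/- was lost when the Ifnar2-/- arrays were fitted alone with the replicate number as a block (adjusted p = 0.224). With that block over all arrays the call was kept. It was lost without any of the 3 Ifnar2-/- PBS arrays (1.65 to 1.86, adjusted p = 0.07 to 0.0859). It was also lost with slide as a fixed block (1.74, adjusted p = 0.0584), with all probes tested (adjusted p = 0.061), with only the compared groups fitted (adjusted p = 0.239) and without slide 3 (1.96, adjusted p = 0.165).

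The mean of the neutrophil markers was also higher after IFN-β in Ifnar2-/-, but not alike on both slides. On slide 2 it went from -1.12 to -1.02, while Gpr84 rose by 4.02 and Gpr109a by 1.96. On slide 3 the marker mean rose, as did Gpr84 (3.54) and Gpr109a (1.63). The mean over 14 tested markers was -1.12, -1.99 and -1.52 after PBS and -1.02, 0.36 and 0.71 after IFN-β, and none of the 14 was called there by limma, while Ly6g and Camp were not tested. Wild-type PBS arrays read 0.81, -1.39 and -2.08, and on these Gpr84 read -3.90, -3.70 and -3.79. The part of these cells in either receptor's result was not tested.

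**Figure D4:**
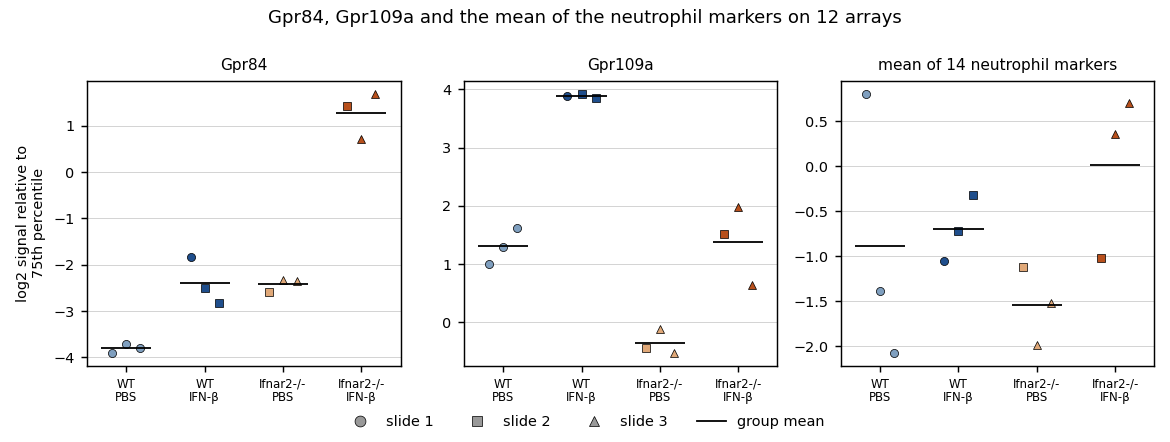
Levels of Gpr84, Gpr109a and the mean of 14 neutrophil markers on each of the 12 arrays (y axis, log2 signal relative to the array's 75th percentile) by group, with the slide as the symbol and the group mean as a line. Gpr84 reaches 0.72 to 1.69 in the Ifnar2-/- IFN-β arrays and lies at -1.83 or below on the others, and the neutrophil mean ranges from -2.08 to 0.81 over the arrays.

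Of the other fatty acid and metabolite receptors, Gpr120 (Ffar4), which binds long-chain fatty acids, read -4.32, -4.80 and -4.44 after PBS and -4.03, -3.87 and -4.04 after IFN-β in wild type. The rise of 0.54 log2 units (SE 0.16) had an adjusted p of 0.0205 and was lost without wild-type PBS replicate 2 (0.40, adjusted p = 0.0788) or IFN-β replicate 2 (0.49, adjusted p = 0.0659). It was also lost with normexp background correction (0.28, adjusted p = 0.0593), without scaling (0.37, adjusted p = 0.108) and when slide was a fixed block (0.49, adjusted p = 0.162). Ifnar2-/- arrays of Gpr120 read -5.14, -5.62 and -5.20 after PBS and -4.59, -4.74 and -4.69 after IFN-β, a difference of 0.64 that was not called (adjusted p = 0.0856). Gpr35, a receptor for kynurenic acid, and Gpr119, a receptor for fatty acid amides, had wild-type values of 0.31 and 0.39 and were not called.

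Gpr15, which guides T cells to the large intestine, read -8.18, -7.74 and -7.00 after PBS, well above background on none of the 3 arrays, and -2.34, -2.76 and -2.71 after IFN-β. It was at least 15.4-fold higher (adjusted p = 0.00454). The bound sets the mean of the bright group against, for each PBS array, the lowest signal well above background on it or the probe's own signal where that was higher. In Ifnar2-/- Gpr15 read -7.39, -7.52 and -5.67 after PBS and -8.22, -7.68 and -3.07 after IFN-β, so that the array of replicate 3 alone was well above background. The difference between responses was not called (adjusted p = 0.076), and without that array it was -6.13 (adjusted p = 0.000371). It was also called without slide 3 (-5.87, adjusted p = 0.00312), with the replicate number as a block (-4.50, adjusted p = 0.0408) and with normexp (-1.41, adjusted p = 0.0385). With normexp background correction the wild-type value was 1.67 in place of 5.04.

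Gpr33, an orphan related to chemoattractant receptors, read -8.30, -6.70 and -6.46 after PBS in wild type, none well above background, and -3.46, -3.13 and -3.40 after IFN-β. It was at least 8.94-fold higher (adjusted p = 4.63e-05). The Ifnar2-/- arrays read -7.38, -7.35 and -6.96 after PBS and -6.57, -7.40 and -7.18 after IFN-β, none well above background. The responses differed (adjusted p = 0.0017), with a fitted difference of -3.65 that rests on signals below background and became -0.94 with normexp. Without slide 3 it was -3.03 and not called (adjusted p = 0.112).

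Gpr141, an orphan expressed in myeloid cells, read -5.09, -5.49 and -5.50 after PBS and -1.97, -2.57 and -2.60 after IFN-β in wild type. It was well above background on all 6 of these arrays and rose by 2.98 log2 units (SE 0.34, adjusted p = 6.95e-05), or by 1.5 with normexp. Its Ifnar2-/- arrays read -5.59, -6.75 and -5.89 after PBS and -6.02, -7.03 and -6.11 after IFN-β, well above background on 1 array of each group. The responses differed by -3.29 (SE 0.48, adjusted p = 0.000976), or -1.55 with normexp. Of the 7 tested orphans listed as immune-cell receptors, 3 rose and none fell in wild type, near the 39.4% of all genes called. The genes that rose include Gpr15, which the filter admitted only through the wild-type IFN-β arrays. None of the 7 was called in Ifnar2-/- by limma.

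Monocyte markers rose in the same wild-type arrays. Their mean over 8 tested markers ranged from 2.43 to 3.08 with PBS and from 4.30 to 4.52 with IFN-β. Of the 8, 5 were called higher, beside 17.6% of all genes. In Ifnar2-/- the mean was 2.26 to 2.53 and 2.43 to 3.22, with no monocyte markers called by limma. The part of monocytes in the rises of P2ry13, P2ry14, Gpr141 and the other receptors was not tested.

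The adhesion receptors, which carry long extracellular domains, had 10 of 16 members tested; in wild type 2 rose, 2 fell and 6 were not called, a share near the 39.4% of all genes. Gpr128 (Adgrg7) read -8.42, -6.55 and -8.47 after PBS in wild type and -5.05, -4.96 and -4.07 after IFN-β. None of the PBS arrays was well above background, and it was at least 3.62-fold higher (adjusted p = 0.00124). Gpr128 is among the adhesion receptors counted as risen, and the filter admitted it only through the wild-type IFN-β arrays. The Ifnar2-/- arrays, none well above background, read -8.35, -7.39 and -7.01 after PBS and -8.40, -7.47 and -7.27 after IFN-β. The responses differed (adjusted p = 0.0161), with a fitted -3.26 that rests on signals below background. Normexp gave 0.58 for the wild-type rise and -0.72 for the difference between responses, which was not called with slide as a fixed block (-2.89, adjusted p = 0.0645) or without slide 3 (-3.17, adjusted p = 0.153).

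Gpr124 (Adgra2), a co-receptor for Wnt ligands in brain vessels, read -3.30, -3.33 and -3.50 after PBS and -5.28, -5.65 and -4.23 after IFN-β in wild type, without overlap. It fell by 1.67 log2 units (SE 0.32, adjusted p = 0.00188), or by 0.54 with normexp. Ifnar2-/- arrays of Gpr124 read -3.22, -3.39 and -3.40 after PBS and -3.13, -3.45 and -3.94 after IFN-β. The difference between responses of 1.51 (SE 0.45, adjusted p = 0.0417) was lost in all but 7 of 22 alternatives, among them the omission of any array other than wild-type IFN-β replicate 3 and Ifnar2-/- IFN-β replicate 3 (1.21 to 1.57, adjusted p from 0.0649 to 0.0997) and normexp (0.36, adjusted p = 0.342). Mesothelial and stromal markers were also lower after IFN-β in wild type, with array means over 7 tested markers of -2.70 to -2.25 and -3.22 to -2.93. Of the 7, 4 were called lower, beside 21.8% of all genes. In Ifnar2-/- those means were -2.78 to -2.49 and -3.20 to -3.07, with none called by limma, and the part of these cells was not tested.

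Gpr110 (Adgrf1), a receptor for a lipid amide in brain, was called for the difference between responses but in neither genotype. In wild type it was called lower with slide as a fixed block (-2.37, adjusted p = 0.0159) and without IFN-β replicate 3 (-1.74, adjusted p = 0.0259). It read -6.11, -5.83 and -5.88 after PBS and -8.31, -7.05 and -5.98 after IFN-β in wild type, and -6.38, -7.66 and -7.28, then -5.40, -6.52 and -5.10 in Ifnar2-/-. Gpr110 passed the filter on dim signals only through the wild-type PBS arrays. The filter thus favoured a wild-type fall and a positive difference between responses, and its call is not read as support. The probe was well above background on 7 of 12 arrays. The difference of 2.60 (SE 0.79, adjusted p = 0.0452) was 0.15 with normexp (adjusted p = 0.675) and was kept in 7 of 21 alternatives. Leaving out any array other than wild-type IFN-β replicate 3, Ifnar2-/- PBS replicate 1 and Ifnar2-/- IFN-β replicate 2 ended it (2.00 to 2.69, adjusted p from 0.073 to 0.104). Gpr125 (Adgra3), another adhesion receptor, fell by 0.62 log2 units (SE 0.20, adjusted p = 0.0321) in wild type.

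Gpr65, which raises cyclic AMP in lymphocytes and macrophages in acid surroundings, read 1.92, 2.11 and 1.77 after PBS and 3.07, 3.12 and 2.75 after IFN-β in wild type. It rose by 1.05 log2 units (SE 0.19, adjusted p = 0.00126), with no overlap. In Ifnar2-/- it read 2.60, 2.28 and 2.34 after PBS and 2.38, 2.20 and 1.72 after IFN-β. The responses differed by -1.35 (SE 0.26, adjusted p = 0.00532), a call that was lost without slide 3 (-1.27, adjusted p = 0.058).

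Among the remaining genes, Gpr83, a receptor of regulatory T cells and brain, had the largest fall. It read -0.33, 0.86 and -0.90 after PBS and -4.03, -2.47 and -4.11 after IFN-β in wild type, and fell by 3.41 log2 units (SE 0.64, adjusted p = 0.00176). Ifnar2-/- arrays of Gpr83 read -1.68, -0.33 and -0.32 after PBS and -3.04, -1.86 and -3.71 after IFN-β. Those groups did not overlap either, but the change of -2.09 was not called (adjusted p = 0.139), and neither was the difference between responses (1.32, SE 0.91, adjusted p = 0.383). Means over 11 T and NK cell markers in wild type ranged from -2.02 to -1.70 with PBS and from -2.17 to -2.05 with IFN-β. Of the 11, 2 were called higher and 5 lower, beside 17.6% and 21.8% of all genes, and their part was not tested.

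Gpr175 (Tpra1), a membrane protein first described in fat cells, read -0.63, -0.61 and -0.59 after PBS and -2.01, -1.79 and -2.0 after IFN-β in wild type. It fell by 1.32 log2 units (SE 0.17, adjusted p = 0.00016). In Ifnar2-/- the arrays read -0.29, -0.53 and -0.63 after PBS and -0.37, -0.60 and -1.07 after IFN-β, and the responses differed by 1.13 (SE 0.24, adjusted p = 0.009). Gpr162, an orphan, read -0.87, -1.08 and 0.48 after PBS and -1.59, -2.68 and -1.90 after IFN-β in wild type. It fell by 1.57 log2 units (SE 0.44, adjusted p = 0.0163), a call lost without wild-type PBS replicate 3 (-1.08, adjusted p = 0.0523), without IFN-β replicate 2 (-1.26, adjusted p = 0.0639) and when slide was a fixed block (-1.10, adjusted p = 0.255). In Ifnar2-/- Gpr162 read 0.38, 0.40 and 0.15 after PBS and 0.71, -0.25 and 0.95 after IFN-β, and the difference between responses was not called (1.73, adjusted p = 0.0856), though it was without scaling (2.01, adjusted p = 0.0427) and without Ifnar2-/- IFN-β replicate 2 (2.09, adjusted p = 0.0442).

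After PBS, 11 of the 65 tested receptor genes differed between the genotypes, 9 higher and 2 lower in Ifnar2-/-, where 4.88% of all genes were called (2.85% higher and 2.04% lower). The 9 include Gpr4, which the filter admitted only through the Ifnar2-/- IFN-β arrays. The median difference over the tested receptor genes was 0.30, against 0.01 over all genes. With probes well above background on all 12 arrays, 7 of 46 were called, 6 higher and 1 lower, beside 5.08% of all genes (3.21% higher and 1.87% lower). Markers of other cells also differed by genotype. Mast cell means over 8 markers ranged from 2.33 to 2.76 in wild type and from 2.97 to 3.18 in Ifnar2-/- after PBS, with 2 called higher. Dendritic cell means over 6 markers ranged from -3.82 to -3.60 and from -3.23 to -2.99, with 2 called higher, and 2 of 14 neutrophil markers were called lower. Of 11 large peritoneal macrophage markers 2 were called higher, of 8 monocyte markers 1 higher, and of 4 eosinophil markers 1 lower. Their part in the receptor differences was not tested. The PBS groups of wild type and Ifnar2-/- shared no slide, so genotype and slide cannot be told apart between these arrays alone. With slide as a fixed block, estimable only through the IFN-β arrays, none of the 65 was called by limma, with 12 at an unadjusted p under 0.05, beside 0.170% of all genes called.

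P2ry6, described above, and Gpr177 (Wls), the carrier that brings Wnt proteins to the cell surface, had the lowest adjusted p for the genotype difference. Gpr177 read 1.31, 1.14 and 1.12 after PBS and 1.16, 1.20 and 1.24 after IFN-β in wild type, and 2.84, 2.53 and 2.61, then 2.51, 2.81 and 2.71 in Ifnar2-/-. The genotypes did not overlap under either treatment, and the difference after PBS was 1.47 log2 units (SE 0.12, adjusted p = 8.61e-05). Its other kept probe gave 1.69 (SE 0.28, adjusted p = 0.00689 among all probes). On slide 2, which held both genotypes, P2ry6 read -0.35 and -0.06 on the wild-type arrays and 2.48 and 2.76 on the Ifnar2-/- arrays, and Gpr177 read 1.20 and 1.24 against 2.84 and 2.51. In the fit with the slide block the differences were 2.52 (adjusted p = 0.0791) for P2ry6 and 1.41 (adjusted p = 0.101) for Gpr177.

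Gpr142, a receptor for aromatic amino acids, read -6.06, -6.43 and -6.23 after PBS in wild type and -4.52, -3.90 and -3.47 in Ifnar2-/-. After IFN-β it read -5.80, -5.79 and -6.12 in wild type and -5.05, -4.42 and -4.0 in Ifnar2-/-, again without overlap. The difference after PBS was 2.28 (SE 0.30, adjusted p = 0.00147), 0.68 with normexp, and 1.87 with the slide block (adjusted p = 0.107). Gpr161, a receptor of the primary cilium that restrains Hedgehog signalling, read -4.07, -3.57 and -3.82 after PBS in wild type and -2.84, -2.59 and -2.36 in Ifnar2-/-. After IFN-β it read -3.61, -3.43 and -3.38, and -3.16, -2.83 and -2.71. It was higher after PBS by 1.22 (SE 0.18, adjusted p = 0.00274), by 0.71 with normexp, by 0.77 with the slide block (adjusted p = 0.677) and by 0.98 without slide 3 (adjusted p = 0.133).

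Gpr109a was lower in Ifnar2-/- after PBS, by a log2 difference of -1.66 (SE 0.29, adjusted p = 0.00881), and the slide block gave -1.62 (adjusted p = 0.721). Gpr84 and P2ry13 were higher there, by 1.37 (SE 0.28, adjusted p = 0.0188) and 1.34 (SE 0.29, adjusted p = 0.0244). The Gpr84 call was lost without replicate 1 or 3 of wild type after PBS or replicate 2 or 3 of Ifnar2-/- after PBS (1.32 to 1.38, adjusted p from 0.058 to 0.0772). Normexp gave 0.81 (adjusted p = 0.054) and the slide block 2.19 (adjusted p = 0.175), and without slide 3 the value was 1.20 (adjusted p = 0.255). The P2ry13 call was lost without wild-type PBS replicate 2 or any Ifnar2-/- PBS array (1.07 to 1.45, adjusted p from 0.0537 to 0.072). For P2ry13 normexp gave 0.67 (adjusted p = 0.0548), the slide block 1.84 (adjusted p = 0.519), and the fit without slide 3 1.65 (adjusted p = 0.141).

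Further genotype calls rested on dim probes. Gpr4, a proton sensor of blood vessels, was not well above background on any wild-type array. It read -7.55, -8.59 and -7.91 after PBS and -7.72, -7.60 and -7.01 after IFN-β in wild type, against -6.55, -4.94 and -5.15, then -5.95, -4.34 and -4.93 in Ifnar2-/-. The fitted difference after PBS was 2.47 (SE 0.49, adjusted p = 0.0183), but 1 of 3 Ifnar2-/- PBS arrays was well above background. Gpr4 thus passed the filter on dim signals only through the Ifnar2-/- IFN-β arrays. The filter favoured a higher level in Ifnar2-/-, and the call is not read as support. The lowest signal well above background was itself higher on the slide 3 arrays (-5.46 and -5.02) than on the wild-type PBS arrays (-6.64 to -6.50), and no fold is given. Its slide 2 arrays were the lowest of Ifnar2-/-, and the call was lost without replicate 2 or 3 of either PBS group (2.17 to 2.53, adjusted p from 0.0512 to 0.0766), with normexp (0.31, adjusted p = 0.185), the slide block (1.12, adjusted p = 0.932) and without slide 3 (1.47, adjusted p = 0.253).

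Gpr158, an orphan of the nervous system, read -6.14, -6.19 and -6.90 after PBS and -5.61, -5.99 and -5.46 after IFN-β in wild type, and -5.63, -5.32 and -5.12, then -5.67, -5.92 and -5.15 in Ifnar2-/-. Gpr158 passed the filter on dim signals only through the wild-type IFN-β arrays. The filter thus favoured a rise in wild type, and its call there is not read as support. The genotype difference of Gpr158 of 1.06 (SE 0.26, adjusted p = 0.0468) and its wild-type rise of 0.72 (SE 0.26, adjusted p = 0.049) were each kept in 7 of 22 alternatives. Without wild-type PBS replicate 3, its lowest array, they were 0.81 (adjusted p = 0.134) and 0.48 (adjusted p = 0.179). Gpr120 was lower by a log2 difference of -0.80 (SE 0.16, adjusted p = 0.0183) and lost its call without replicate 1 or 3 of wild type or replicate 2 of Ifnar2-/- after PBS (-0.75 to -0.65, adjusted p from 0.0666 to 0.08). Normexp gave -0.31 (adjusted p = 0.132) for it, the slide block -0.74 (adjusted p = 0.812), the fit of only the compared groups an adjusted p of 0.0716, and the fit without slide 3 -0.62 (adjusted p = 0.364).

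**Figure D5:**
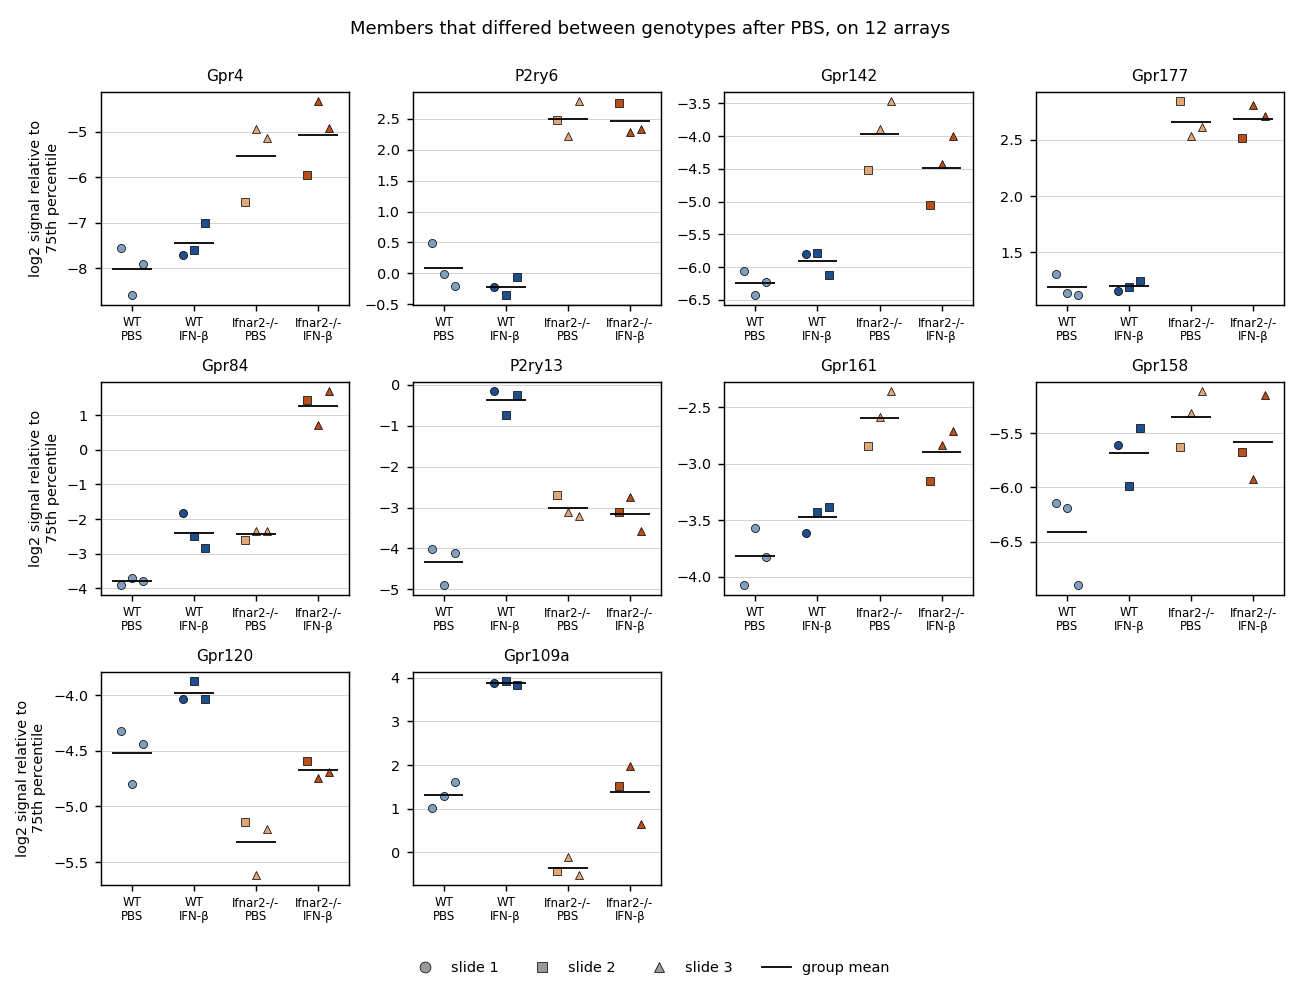
Levels of 10 of the 11 receptor genes called between Ifnar2-/- and wild type after PBS, on each of the 12 arrays (y axis, log2 signal relative to the array's 75th percentile) by group, with the slide as the symbol and the group mean as a line. P2ry6 and Gpr177 keep the genotypes apart on slide 2 as well (squares), while the slide 2 squares of Gpr4 are the lowest Ifnar2-/- arrays.

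The genes with a Gpr name that are not cell surface G protein-coupled receptors had 7 members tested, Gpr175 and Gpr177 among them. In wild type 1 rose and 3 fell, beside 17.6% and 21.8% of all genes. The rise was Gpr89, the Golgi pH regulator, at 0.75 log2 units (SE 0.09, adjusted p = 0.000105), and its response in Ifnar2-/- differed by -0.62 (SE 0.13, adjusted p = 0.00792). Gpr155, which is not on that list, fell by 1.28 log2 units (SE 0.20, adjusted p = 0.000557) in wild type, and its second kept probe fell by 1.00. The Gs-coupled orphans Gpr3, Gpr6 and Gpr12, active without a ligand, were not tested. In all, 38 of the 103 genes were not tested: 20 of them were well above background on 0 arrays and 18 on 1 to 5 arrays.

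Promoters from RefSeq (GRCm38.p6), windows of 300 bases around the start, were found for 76 of the 103 genes and 51 of the 65 tested. They were searched on both strands for an interferon-stimulated response element core (GAAA, any 2 bases, GAAA), a gamma-activated site core (TTCNNNGAA) and the NF-kB consensus, which 3.44%, 8.30% and 4.51% of 32851 promoters of this length hold. These shares count single windows. The counts below are of genes with a match in any window, and some genes have several, so counts and shares are unlike measures. Among 16 genes with a promoter that rose in wild type, the response element core was in Gpr128 and Gpr15 and the gamma-activated core in Gpr128 and Gpr33. Among 10 that fell, the response element core was in Gpr19, and among 25 not called it was in Gpr177 and Gpr18, with the gamma-activated core in 4. Gpr128, Gpr15 and Gpr33 passed the filter on dim signals only through the wild-type IFN-β arrays. None of the searched letters was in the windows of P2ry12, P2ry13, P2ry14 or Gpr84. The promoters that hold a match among the risen genes are printed 5′ to 3′ in the direction of the gene, with the matches in capitals. In Gpr128 the response element core on the opposite strand begins at position -23 relative to the start and overlaps the gamma-activated core that begins at -16. The other matches begin at position -213 in Gpr15 and -156 in Gpr33. The windows are at chr16:56795809-56796108 for Gpr128, chr16:58718823-58719122 for Gpr15 and chr12:52028014-52028313 for Gpr33, all on the minus strand.
Gpr128: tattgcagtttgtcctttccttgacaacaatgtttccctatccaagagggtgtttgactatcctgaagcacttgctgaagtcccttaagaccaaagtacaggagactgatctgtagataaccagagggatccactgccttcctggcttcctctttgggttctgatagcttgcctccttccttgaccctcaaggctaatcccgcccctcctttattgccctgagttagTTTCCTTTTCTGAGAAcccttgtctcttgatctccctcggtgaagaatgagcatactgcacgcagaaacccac
Gpr15: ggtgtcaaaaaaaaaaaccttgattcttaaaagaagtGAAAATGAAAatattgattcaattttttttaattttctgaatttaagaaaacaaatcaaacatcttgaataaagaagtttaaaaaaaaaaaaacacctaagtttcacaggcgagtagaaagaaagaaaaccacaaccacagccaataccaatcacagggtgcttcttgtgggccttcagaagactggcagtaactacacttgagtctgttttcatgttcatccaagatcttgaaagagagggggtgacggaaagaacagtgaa
Gpr33: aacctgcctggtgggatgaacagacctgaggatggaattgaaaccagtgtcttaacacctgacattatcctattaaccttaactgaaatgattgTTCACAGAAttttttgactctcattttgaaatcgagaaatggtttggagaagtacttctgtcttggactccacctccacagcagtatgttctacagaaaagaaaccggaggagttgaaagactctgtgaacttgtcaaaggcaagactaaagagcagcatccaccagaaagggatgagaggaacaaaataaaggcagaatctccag

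The genes around the receptors were described from lists of the pathway. Of 5 tested P2X channels, which open on binding ATP, 2 fell in wild type and none rose, beside 21.8% and 17.6% of all genes. P2rx7, the trigger of inflammasome activation by ATP, fell by 0.93 log2 units (adjusted p = 0.00563) and P2rx1 by 0.59 (adjusted p = 0.0233). P2rx1 was also lower in Ifnar2-/- after PBS, by a log2 difference of -1.38 (adjusted p = 0.00144). All 4 adenosine receptors were tested; Adora3 rose by 0.47 in wild type (adjusted p = 0.0482) and Adora2b by 1.19 in Ifnar2-/- (adjusted p = 0.0424), where its wild-type value was 0.27 (adjusted p = 0.397) and the responses did not differ by the test (adjusted p = 0.0797). Among 16 tested genes of nucleotide breakdown, nucleotide release and adenosine handling, 2 rose and 3 fell in wild type. Over all genes 17.6% rose and 21.8% fell. Pnp, which splits purine nucleosides, rose by 3.55 log2 units (adjusted p = 4.96e-08) and Alpl, a phosphatase, by 1.52 (adjusted p = 0.0447). Nt5e, the CD73 enzyme that makes adenosine from AMP, fell by 2.06 (adjusted p = 0.000107) and Entpd5, a nucleotide phosphatase, by 0.93 (adjusted p = 0.00149).

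Of 12 tested G protein alpha subunits, 2 rose and 5 fell in wild type, where falls also outnumbered rises over all genes (21.8% against 17.6%). Gna14 rose by 0.61 log2 units and Gna11 fell by 0.65, both of which couple receptors to phospholipase C, and Gnaz and Gna12 fell by 1.17 and 0.74. Of 15 tested desensitization and RGS genes, which switch receptor signalling off, 1 rose and 8 fell, with a median of -0.54 against -0.04 over all genes. The arrestin gene Arrb1 fell by 1.55 (adjusted p = 8.73e-05), Arrb2 by 1.01, the receptor kinases Grk2 and Grk3 by 1.10 and 0.97, and Rgs2 by 1.11 (adjusted p = 0.0103), while Rgs14 rose by 0.83 (adjusted p = 0.000926). In Ifnar2-/- none of these 27 genes was called by limma.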

How the data were processed

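Agilent 1-colour arrays of 12 samples, 3 in each of 4 groups, were analysed. The deposited intensity values are processed signals from Agilent Feature Extraction 9.5.3.1, per the submitters' processing notes. Each value was turned into log2 and the array's 75th percentile over non-control spots was subtracted. Probes entered the test if at least 1 group had every array well above background. A gene was represented by its kept probe with the highest mean signal. R 4.3.3 with limma 3.58.1 fitted all 4 groups together, and p-values were adjusted by Benjamini-Hochberg over 18277 genes at a threshold of 0.05. The procedure was tested on simulated data. Full values are given for Gpr84, every tested P2ry gene and, in each comparison, the 8 other called genes with the largest absolute log2 fold change, and non-members come from the pathway lists, up to 4 called genes for each list and comparison. The receptor genes and all lists were chosen with earlier results of these data known. Same-numbered Ifnar2-/- arrays deviated together (correlations 0.10 to 0.51), but each such pair shared a slide, and differently numbered arrays of slide 3 correlated at 0.12 and 0.22, so number and slide cannot be told apart. Alternatives covered scaling, background correction, filters, probe choice, slide and replicate blocks, the samples fitted and the omission of each array. The number of arrays limits the precision. A few genes of the set are not reported here by name.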

Additional observations from a re-analysis of the deposited data

Results flagged for a closer look

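For 14 of the receptor genes given with full values, the response to IFN-β differed between the genotypes by limma's test of the difference itself (Ifnar2-/- response minus wild-type response, log2). The difference was negative, a lower response in Ifnar2-/-, for P2ry13 (-4.11), Gpr33 (-3.65), P2ry14 (-3.60), Gpr141 (-3.29), Gpr128 (-3.26), P2ry12 (-2.87), P2ry5 (-2.06) and Gpr65 (-1.35). It was positive for P2ry2 (2.98), Gpr110 (2.60), Gpr84 (2.29), Gpr124 (1.51), Gpr175 (1.13) and P2ry1 (1.06). Among the genes with a positive difference, Gpr84 rose in both genotypes and more in Ifnar2-/-. Gpr124, Gpr175, P2ry1 and P2ry2 fell in wild type, with Ifnar2-/- values that were not called, among them 0.80 for P2ry2. Gpr33 and Gpr128 passed the filter on dim signals only through the wild-type IFN-β arrays, and Gpr110 only through the wild-type PBS arrays. For these genes the filter favoured the sign of the difference. Groups of 3 arrays are too small for a test of single outlying arrays.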

How the results depend on the processing

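The wild-type count of 30 called receptor genes stayed within 1.5 times in every alternative run, with 25 to 31 when single arrays were left out. In Ifnar2-/- the count of 2 became 1 with no filter on dim probes, with slide as a fixed block and with only the compared groups fitted, and 1 to 3 without single arrays. The 17 differences between responses became 11 with slide as a fixed block and 9 without slide 3 (12 to 19 without single arrays). The 11 genotype differences after PBS became 6 with normexp background correction, 7 with probes well above background on all arrays, 0 with slide as a fixed block by limma (12 at an unadjusted p under 0.05) and 4 without slide 3 (5 to 13 without single arrays). None of the 49 calls on genes given with full values reversed in the alternatives run, and other named genes were not followed through them. Leaving out slide 3 and the block on Ifnar2-/- arrays alone were chosen after seeing the data.

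With the replicate number as a block over all arrays the counts were 29, 2, 16 and 11 in the same order. In the fit of Ifnar2-/- arrays alone the replicate block left 0 called by limma (17 at an unadjusted p under 0.05), and without slide 3 that comparison also had 0 (5 at an unadjusted p under 0.05). Of 49 calls on genes given with full values, 49 were kept with quantile normalization, 47 without scaling, 37 with normexp, 27 with slide as a fixed block, 43 with the replicate block and 32 without slide 3. Normexp moved the values of dim probes most, and the cause was not tested.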
